A study of Mus musculus with 38 samples.

Results

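CREB sites common to mouse liver and isolated hepatocytes are the regions described here. They were taken as the sites of the CREB list of glucagon-treated hepatocytes that share at least 1 base with a site of each of the other 4 CREB lists, which are those of 24 h fasted liver, fed liver, hepatocytes given glucagon plus corticosterone, and untreated hepatocytes. The rule was met by 3980 of the 28229 sites of the glucagon list (14.1%), and the remaining 24249 sites of that list are called the other sites. The members were thus selected on the CREB calls of 5 lists, so their CREB densities and ranks are given as a description, and the lists of phospho-CREB, GR and H3K27ac were not used in the choice.

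CREB is a transcription factor that binds cAMP response elements in promoters and enhancers. In liver, glucagon released in fasting raises cAMP, protein kinase A then phosphorylates CREB on a serine, and phospho-CREB recruits coactivators to genes of glucose production. The glucocorticoid receptor (GR) is the nuclear receptor bound by corticosterone, another hormone of the fasted state, and H3K27ac (acetylation of histone H3 at lysine 27) marks active promoters and enhancers.

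All material came from C57BL/6 mice, and the labels name no altered allele. Liver was taken from mice fasted for 24 h, fasted for 10 h (H3K27ac only) or fed ad libitum, and hepatocytes were isolated by collagenase perfusion and given 10 nM glucagon plus 1.7 uM corticosterone or 10 nM glucagon for 1 h, or left untreated. Chromatin immunoprecipitation with sequencing was carried out on 38 samples in 15 groups, and 11 of 13 deposited peak lists, 1 for each of 11 groups, were used here. The CREB lists held 11339 sites in 24 h fasted liver, 13142 in fed liver, 42090 with glucagon plus corticosterone, 28229 with glucagon and 47596 in untreated hepatocytes, and the phospho-CREB lists, both of liver, held 6812 sites in fasted and 7669 in fed liver. GR was mapped in hepatocytes given both hormones (11892 sites), and H3K27ac in fed, 10 h and 24 h fasted liver (29917, 47777 and 32103 regions).

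Each list gives 1 value per region for its group, so no spread between replicates exists for any value below, and every difference is one between lists. The scaling of the tag density is not stated, so densities of different lists are set side by side, and lists are compared by rank. The untreated group held 1 sample, whose library its list names as paired with itself, and the other groups held 2 or 3. Fasted liver means 24 h of fasting unless 10 h is given. How deeply the libraries were sequenced is unknown. The liver CREB and phospho-CREB libraries alone are labelled as NextSeq 500 runs, so source and sequencing run cannot be told apart where liver and hepatocyte lists differ. The liver libraries are labelled as liver, a tissue of several cell types, so fewer cells with a bound site and less binding per cell cannot be told apart. Intervals are at the 95% level and cover counting error only, and neighbouring sites are not independent. Positions are mm9, as deposited.

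The liver lists set most of the membership. Of the glucagon sites, 4919 (17.4%) overlapped a CREB site of fasted liver and 5945 (21.1%) one of fed liver, whereas 22977 (81.4%) overlapped the list of both hormones and 20887 (74.0%) the untreated list. A further 2285 sites lacked 1 list only, namely fasted liver for 1568, fed liver for 613, glucagon plus corticosterone for 54 and untreated for 50. Seen from the other side, the common sites took up 4040 regions of the fasted liver list (35.6%) and 4049 of the fed liver list (30.8%), against 3977 of the list of both hormones (9.45%) and 4056 of the untreated list (8.52%).

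Common sites were wide and dense. Their median width was 1025 bp (quartiles 832 to 1239), against 542 bp at the other sites. The authors' highest tag density, a signal per region called density here, had a median of 36.6 at common sites and 9.48 at the other sites of the glucagon list. Width and density of the common sites went together in all 5 lists, with Spearman rho between 0.421 and 0.562 across 3980 sites that share their libraries.

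By rank within each list, 0% being the densest site, the median common site stood at 22.4% in fasted liver, 18.1% in fed liver, 7.51% with both hormones, 9.35% with glucagon and 4.51% in untreated hepatocytes. Median densities were 18.6 in the fasted liver list (8.42 over that whole list), 21.4 in fed liver (8.13), 57.6 with both hormones (11.4), 36.6 with glucagon (10.5) and 54.7 in untreated hepatocytes (9.61). Every list thus placed most common sites in its upper part, which the rule favours. Of the 1000 densest sites of each list, common sites made up 84.5% in fasted liver, 87.6% in fed liver, 75.3% with both hormones, 87.2% with glucagon and 98.6% in untreated hepatocytes. The very top differed between the sources. All of the 10 densest sites in each hepatocyte list were common sites, against 1 of the 10 densest in each liver list.

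That 1 site, chr7:97590703-97591606, had a density of 5594.2 in fasted liver and 33169.7 in fed liver, against 31.2, 20.4 and 36.6 in hepatocytes with both hormones, with glucagon and untreated. It shared 73 bp with the fasted liver region, its smallest stretch. It was the only member above a density of 1000 in a liver list, although 14 sites of the fasted and 33 of the fed liver list were. The other extreme sites of the liver lists lay outside the common set.

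The 10 common sites with the lowest mean rank over the 5 lists were each in the upper 19 in every hepatocyte list, between rank 19 and 39 in fasted liver and between 37 and 56 in fed liver. Site chr13:46822707-46823916 led them, with densities of 648.5 in fasted liver, 676.7 in fed liver, 652.2 with both hormones, 381.0 with glucagon and 840.7 in untreated hepatocytes. Site chr7:52972711-52974114 was the densest of all in each of the 3 hepatocyte lists, at 978.9 with both hormones, 509.7 with glucagon and 1042.3 untreated, and reached 491.0 in fasted and 544.2 in fed liver. All 10 lay at a phospho-CREB site in both livers, with densities of 70.7 to 153.4 in fasted and 156.6 to 279.4 in fed liver. None lay at a GR site. They lay in H3K27ac regions in 8 (fed), 9 (10 h) and 10 (24 h) cases, with 24 h densities of 6.35 to 52.2, beside a list median of 14.5. The densest common CREB sites thus all coincided with phospho-CREB, while their 24 h acetylation ranged from rank 2815 to rank 29166 of 32103.

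Among the common sites the order of CREB density was most alike within liver and between the hormone-treated hepatocyte lists, and the untreated list stood as near to liver as to the other hepatocyte lists. To compare lists of unlike length, each member was ranked among the 3980 members, from 0% for the densest to 100%. Spearman rho was 0.898 between fasted and fed liver, 0.922 between glucagon plus corticosterone and glucagon alone, 0.822 between glucagon and untreated, and 0.759 between both hormones and untreated. Between liver and hepatocyte lists it ran from 0.661 (fed liver and both hormones) to 0.844 (fed liver and untreated). Fasted liver had 0.705 with both hormones, 0.742 with glucagon and 0.804 with untreated. Of the hepatocyte lists, the untreated one was closest in order to each liver list. These points share libraries within a list and site width across lists. Of the 100 densest members of each list, 52 were the same in all 5, and 82 were shared by fasted and fed liver. The mean liver rank and the mean hepatocyte rank lay within 10 points of each other at 2147 members (53.9%).

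**Figure D1:**
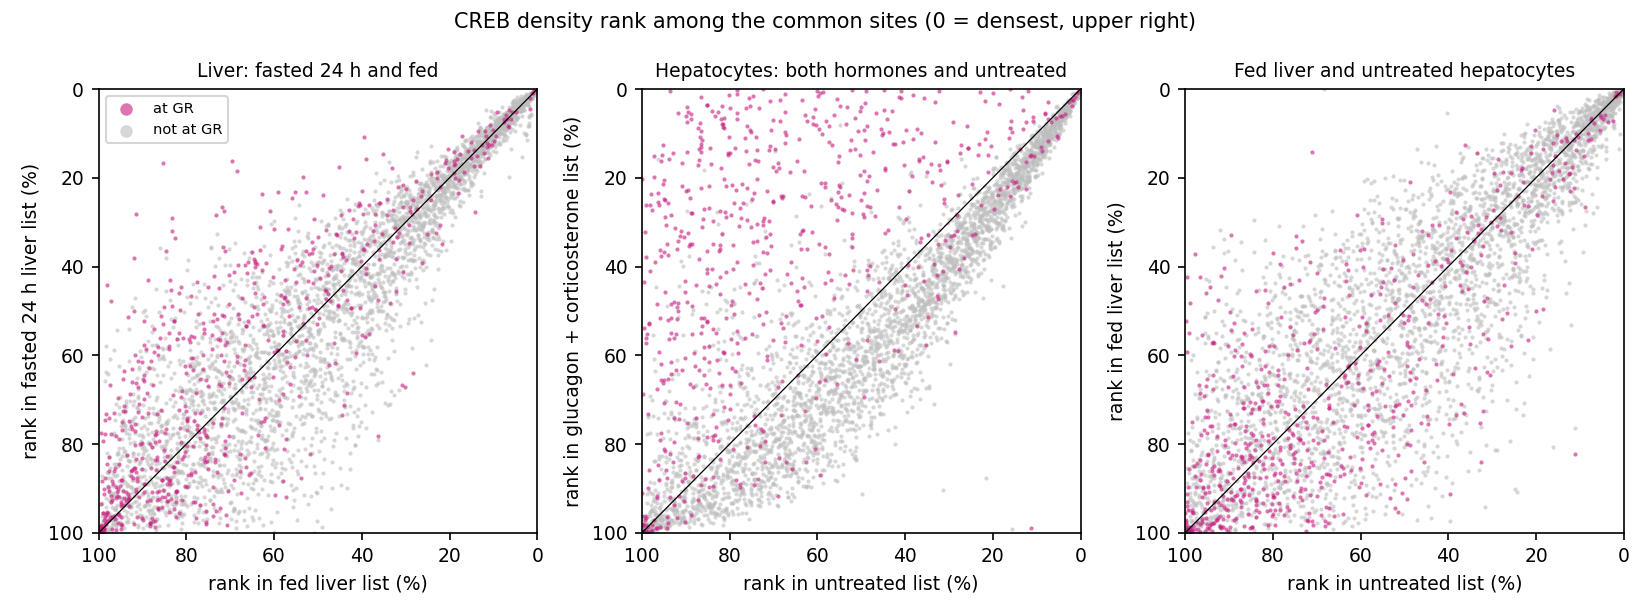
CREB density rank of the 3980 common sites among themselves (percent, 0 the densest, axes running to the densest at the upper right) in fasted against fed liver, in hepatocytes with both hormones against untreated, and in fed liver against untreated hepatocytes; each point is 1 site, coloured by overlap with a GR site, and the line marks equal rank. In the middle panel the 669 sites at GR spread far above the line, where 81.2% of them lie, whereas 18.2% of the sites not at GR do.

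Phospho-CREB was far more frequent at common sites than at the other sites of the glucagon list. Counted among liver CREB sites this did not hold for fasted phospho-CREB, which lay at 15.8% of common and 33.9% of other sites of the fasted liver list. For fed phospho-CREB the contrast was small there, at 35.1% of common and 26.8% of other sites of the fed liver list. In the fasted liver list fed phospho-CREB lay at 35.12% and 34.25%. In 24 h fasted liver 642 common sites (16.1%, interval 15.0 to 17.3) overlapped a phospho-CREB site, against 1.12% of the other sites, a difference of 15.0 points (13.9 to 16.2), where 3.23% of the whole glucagon list did. In fed liver 1422 common sites (35.7%, 34.3 to 37.2) did, against 1.19% of the other sites, a difference of 34.5 points (33.1 to 36.0), where 6.06% of the whole list did. The other sites include many absent from the liver CREB lists. At the 13369 sites found in the 3 hepatocyte lists and in no liver CREB list, the shares were 0.224% in fasted and 0.239% in fed liver. Sites that lacked 1 CREB list differed by which list it was. Those lacking a liver list alone had low shares, of 0.574% in fasted and 1.79% in fed liver for the 1568 sites without the fasted list, and of 3.43% in fasted and 2.12% in fed liver for the 613 sites without the fed list. The 54 sites lacking the list of both hormones alone had 64.8% in fasted and 68.5% in fed liver, and of the 50 lacking the untreated list alone 15 overlapped phospho-CREB in fasted and 20 in fed liver. High shares thus went with presence in both liver lists.

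**Figure D2:**
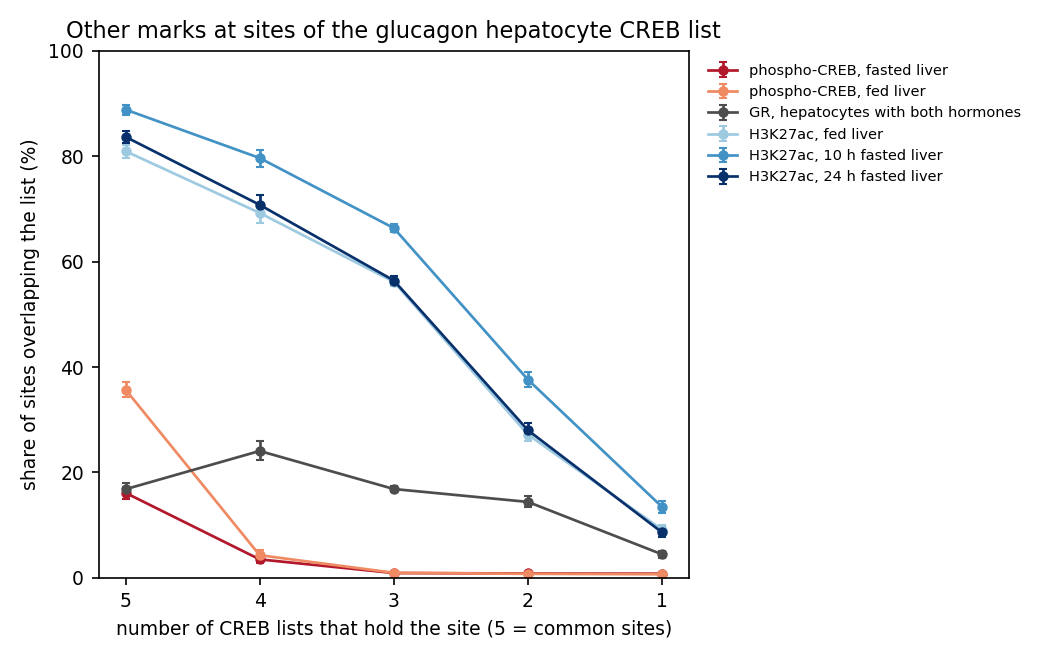
Share of glucagon-list CREB sites that overlap each of 6 other lists (y axis, percent) by the number of CREB lists that hold the site (x axis, 5 for the common sites, n = 3980, down to 1, n = 3685); bars are 95% Wilson intervals. Phospho-CREB shares are at most 4.29% in the classes with fewer lists, each pooled over which list is missing, H3K27ac shares are lower with each list fewer, and GR is highest, at 24.1%, among sites in 4 lists.

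Within the common set, phospho-CREB was most frequent at the sites densest by mean CREB rank. In the densest decile (398 sites by mean rank over the 5 lists) 85.2% overlapped a phospho-CREB site in fasted and 98.0% in fed liver. In the second decile the shares were 37.9% in fasted and 89.4% in fed liver, and in the fifth decile 2.26% and 20.9%. In the ninth decile they were 3.77% and 8.54%, and in the tenth 7.04% and 10.3%. By density in the glucagon list alone the order differed. Common sites in its quartiles, densest to least dense, had shares of 18.2%, 3.25%, 12.3% and 25.5% in fasted liver. In fed liver the shares were 40.8%, 9.56%, 20.3% and 23.5%. The least dense quartile held 51 common sites. Where both were called, phospho-CREB density had a Spearman rho of 0.848 with CREB density in fasted liver (642 sites) and 0.918 in fed liver (1422 sites). The overlapping phospho-CREB sites lay close, with a median distance between midpoints of 71.5 bp in fasted and 72.8 bp in fed liver. Within the common set, most overlaps with phospho-CREB thus fell at the sites densest by mean rank. Of the whole phospho-CREB lists, 9.48% of the fasted and 18.6% of the fed sites lay at common sites.

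**Figure D3:**
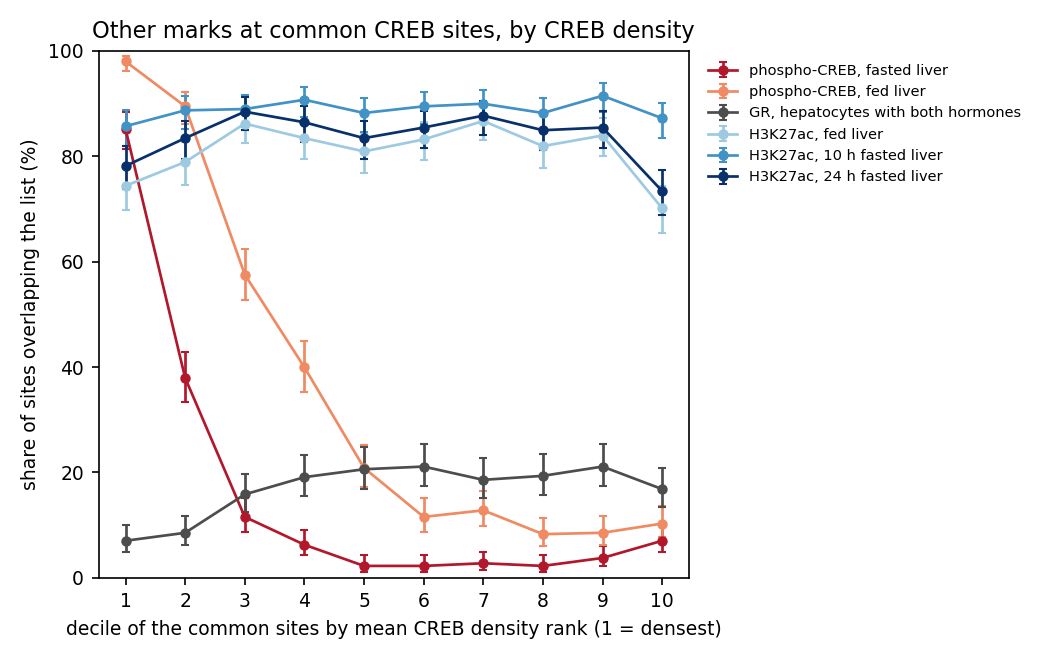
Share of common CREB sites overlapping each other list (y axis, percent, with 95% Wilson intervals) by decile of the common sites, ordered by mean CREB density rank (x axis, 1 the densest, 398 sites each). Phospho-CREB shares fall steeply after the first deciles, GR runs from 7.04% in the densest decile to 21.1% in the ninth, and H3K27ac stays near its level with lower ends in the first and last decile.

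Both phospho-CREB lists held 598 common sites (15.0%), beside 2.64% of the whole glucagon list, fed liver alone held 824 (20.7%), fasted liver alone held 44 (1.11%), and 2514 (63.2%) lay in neither. At least 1 of the lists held 1466 common sites (36.8%), beside 6.66% of the whole glucagon list. Over that whole list, 1711 sites lay in the fed phospho-CREB list, 913 in the fasted one and 745 in both. Among the other sites, 271 lay in the fasted list and 147 in both. Sites of the fasted phospho-CREB list alone thus lay mostly outside the common set. The common set holds only 14.1% of the glucagon list, so this does not show them to be rare in it. The 44 fasted-only sites were unlike the rest in GR. Of them 34 (77.3%, 63.0 to 87.2) lay at a GR site, against 14.5% of sites in both phospho-CREB lists, 13.7% of fed-only sites and 17.3% of sites in neither.

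The fasted-only phospho-CREB sites were also placed differently by CREB. Their median rank among the members was 52.3% in fasted liver and 79.5% in fed liver, and 27.9% with both hormones, 55.8% with glucagon and 81.1% in untreated hepatocytes. They ranked higher in fasted than in fed liver at 36 sites (81.8%), against 49.1% of sites in neither phospho-CREB list. They ranked higher with both hormones than untreated at 33 of the 44 sites, against 32.1% of sites in neither. These sites, chosen by their phospho-CREB calls, thus also tended to rank higher by CREB in fasted than in fed liver. That trait was not theirs alone, as most lay at GR and ranked low in fed liver. Of all 669 members at GR, 65.8% ranked higher in fasted than in fed liver, and 81.2% higher with both hormones than untreated. Of members not at GR in the least dense quartile of fed rank, 64.4% ranked higher in fasted liver.

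Examples of these sites, the 5 with the highest fasted phospho-CREB density, were picked after the values were seen. Site chr2:172977681-172979096 had a phospho-CREB density of 49.4 in fasted liver and no fed phospho-CREB call. Its CREB density was 23.3 in fasted and 14.7 in fed liver, and 240.2 with both hormones, 77.9 with glucagon and 28.2 untreated, and its GR density was 29.6. Its H3K27ac density was 60.7 in fed, 47.8 in 10 h fasted and 99.1 in 24 h fasted liver. Site chr2:31315454-31316681 had 22.7 for phospho-CREB in fasted liver, CREB of 98.7 in fasted and 27.7 in fed liver, and of 729.5 with both hormones, 144.2 with glucagon and 28.2 untreated. Both stood higher in rank with both hormones (336 and 7) than with glucagon (921 and 258) or untreated (5211 each). Of the 5, chr7:31728808-31729544 was the 1 outside the GR list, with CREB densities of 11.7 in fasted and 11.4 in fed liver, and of 29.2 with both hormones, 19.2 with glucagon and 30.1 untreated.

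GR was not much more frequent at common sites than in the list as a whole. A GR site overlapped 669 common sites (16.8%), where 15.4% of the whole glucagon list did, and 15.2% of the other sites, a difference of 1.63 points (0.410 to 2.90). Against sites of the 3 hepatocyte lists in no liver CREB list, of which 16.5% lay at GR, the difference of 0.353 points had an interval that includes 0 (-0.944 to 1.70). The sign depended on density. In the densest quartile of the glucagon list, which holds 3268 of the common sites, 17.4% of common and 36.7% of other sites lay at GR, a difference of -19.3 points (-21.3 to -17.3). In the next quartile the difference was -2.50 points (-5.10 to 0.625), in the third 7.85 points (2.39 to 15.1) and in the least dense quartile, with 51 common sites, 25.03 points (13.4 to 38.8). Quartiles by width gave -18.6, -1.73, 2.39 and 4.75 points from the widest to the narrowest, and the intervals of all but the widest include 0. Within the densest quartile of the glucagon list, common sites thus lay at GR less often than other sites. Where GR overlapped, its midpoint was a median of 67.0 bp from that of the CREB site.

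CREB density at the common sites at GR was set apart by list. The 669 sites had a median member rank of 63.3% in fasted liver, 74.0% in fed liver, 31.2% with both hormones, 43.5% with glucagon and 73.7% in untreated hepatocytes. The 3311 sites not at GR had 47.0%, 45.3%, 53.8%, 51.4% and 45.3% in the same 5 lists. Relative to the other members, sites at GR were therefore low in the untreated list and in both liver lists, less so in fasted liver, and high in the list of both hormones. Ranks are closed, so that when some members gain, the others must lose.

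Site by site, the members at GR stood a median of 28.2 points (24.2 to 30.4) higher with both hormones than untreated, and 81.2% of them stood higher, against a median of -5.98 points and 18.2% of members not at GR. With glucagon alone against untreated, the shift was 17.2 points (14.7 to 19.5) at GR, upward at 80.7%, and -3.46 points away from GR, upward at 30.2%. Adding corticosterone to glucagon went with 5.23 points (4.11 to 6.01) at GR, upward at 71.7%, and -1.56 points away from GR, upward at 38.6%. The median shift with glucagon over untreated was thus larger than that with both hormones over glucagon, although GR was mapped with both hormones. The 2 shifts start from unlike median ranks, 73.7% untreated and 43.5% with glucagon. By quartile of starting rank, densest first, the shift at GR was 1.71, 10.9, 22.4 and 23.7 points with glucagon over untreated. With both hormones over glucagon it was 1.47, 7.23, 8.83 and 6.55 points. The untreated list comes from 1 library, and its part in the shift was not tested.

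In liver the shift at GR was smaller and had the same sign. Members at GR stood a median of 3.39 points (2.37 to 4.70) higher in fasted than in fed liver, upward at 65.8%, and members not at GR -0.276 points, upward at 47.1%. By quartile of fed rank, from densest to least dense, the shift was 0.138, 2.92, 8.95 and 3.87 points at GR, and -0.151, -2.76, -2.81 and 3.98 points away from GR. In the lowest quartile the 2 classes were thus alike, and in the densest quartile the interval at GR included 0 (-0.704 to 0.955). By quartile of untreated rank, the shift with both hormones was -0.465, 15.0, 32.8 and 41.7 points at GR, and -3.82, -10.8, -9.97 and -0.823 points away from GR.

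**Figure D4:**
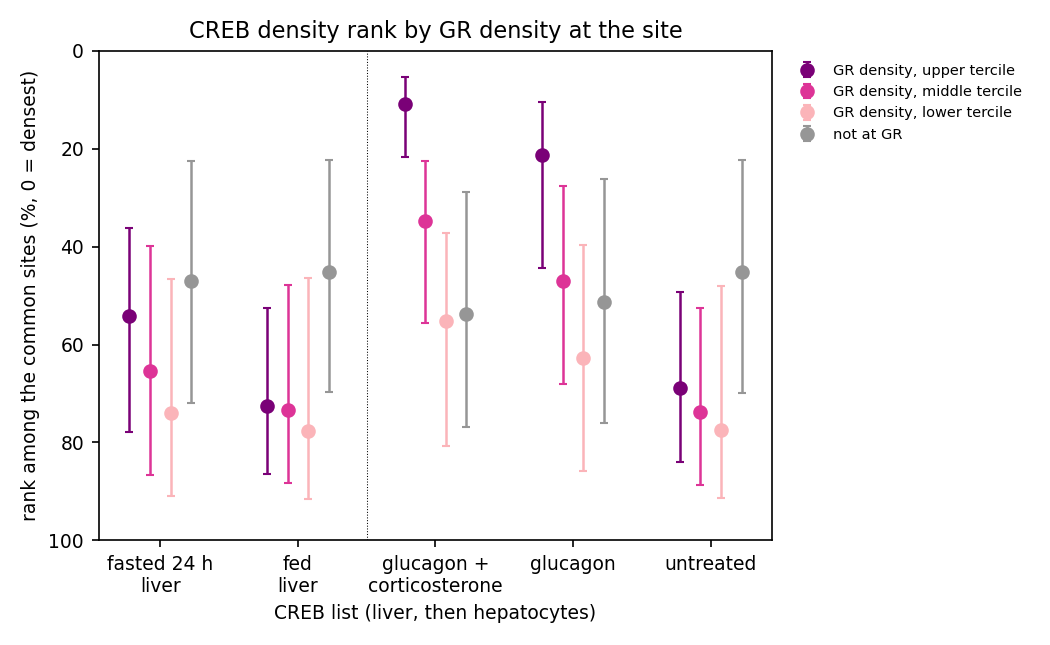
CREB density rank among the common sites (y axis, percent, 0 the densest) in the 5 CREB lists (x axis) for the upper, middle and lower tercile of the 669 sites at GR by GR density and for the 3311 sites not at GR; points are medians and bars run between the quartiles. The upper tercile stands at 10.9% with both hormones and at 68.9% untreated, and in liver at 54.2% fasted and 72.6% fed.

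GR density itself followed the CREB density of the hormone-treated lists. Across the 669 sites, Spearman rho of GR density was 0.669 with CREB density under both hormones, 0.476 under glucagon and 0.0961 untreated, and 0.203 in fasted and 0.0632 in fed liver. The densest GR site of all, chr4:150058713-150059949, was a common site with a GR density of 300.5. Its CREB density was 42.1 in fasted and 16.6 in fed liver, and 867.5 with both hormones, 135.6 with glucagon and 33.4 untreated, and phospho-CREB was called in fasted liver (29.6) and not in fed liver. Site chr2:154878193-154879086, at rank 2 of the GR list, had a GR density of 277.9. Its CREB density was 61.7 in fasted and 10.4 in fed liver, and 631.3 with both hormones, 88.2 with glucagon and 44.3 untreated. It too was in the phospho-CREB list of fasted liver alone, at 21.6. The other 3 of the 5 named common sites highest in GR, at ranks 7, 8 and 10 of the GR list, were called for phospho-CREB in both livers. Of the 5, 4 stood higher in CREB rank percent in fasted than in fed liver, the exception being chr2:167602434-167603869 at 6.05% in fasted and 6.03% in fed liver. All 5 stood highest with both hormones.

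Acetylation was the most frequent mark at the common sites. H3K27ac regions overlapped 3222 (81.0%) in fed, 3536 (88.8%) in 10 h fasted and 3330 (83.7%) in 24 h fasted liver, where 49.8%, 59.0% and 50.5% of the whole glucagon list did. The differences from the other sites were 36.2 points (34.8 to 37.6) in fed, 34.7 points (33.6 to 35.9) in 10 h and 38.6 points (37.2 to 39.9) in 24 h fasted liver. Within quartiles of CREB density these differences were 20.03 to 22.9 points in fed, 21.1 to 57.9 points in 10 h fasted and 20.7 to 25.1 points in 24 h fasted liver, so most were smaller than over the whole list, and all were above 0. Sites of the 3 hepatocyte lists in no liver CREB list had shares of 56.65%, 66.4% and 56.9%. Against them the differences were 24.3, 22.5 and 26.8 points. In the least dense quartile, with 51 common sites, those in fed and 24 h fasted liver were 0.0339 points (-12.6 to 13.9) and 2.62 points (-10.2 to 16.4). The midpoint of the common site itself lay within a region at 67.1%, 77.8% and 70.3% of sites in fed, 10 h and 24 h fasted liver.

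**Figure D5:**
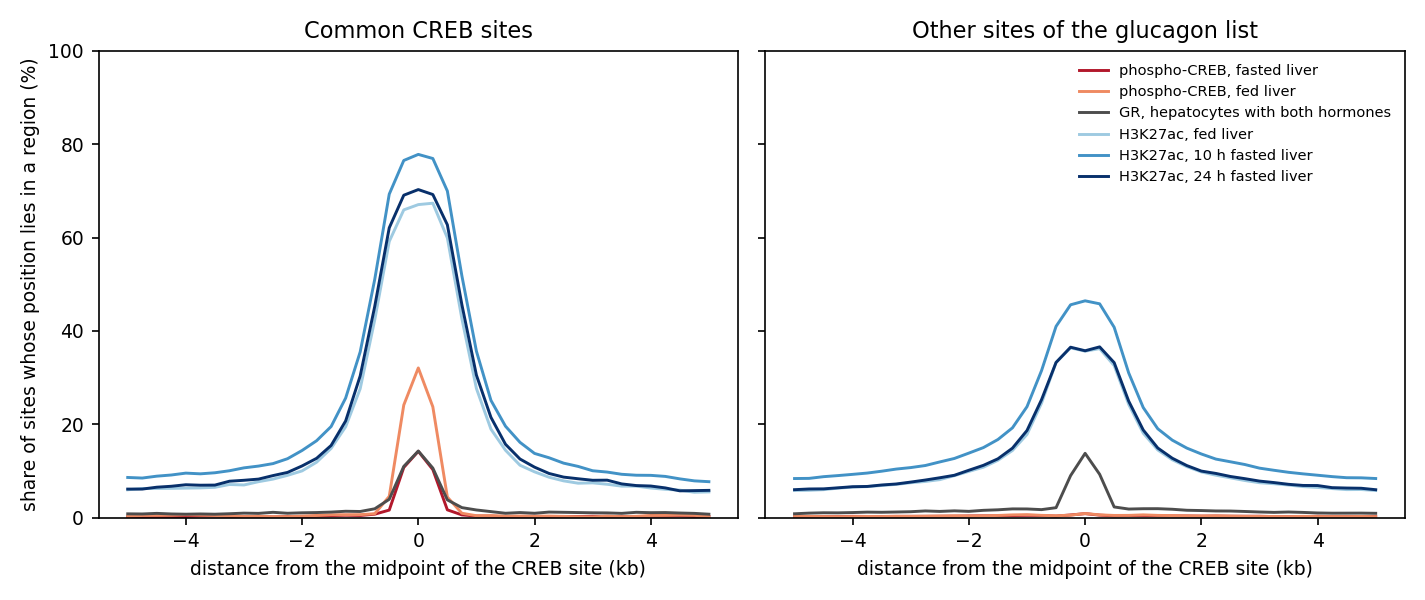
Share of sites (y axis, percent) for which a position at a given distance from the midpoint of the CREB site (x axis, kb) lies in a region of each list, at the 3980 common sites and at the 24249 other sites of the glucagon list. H3K27ac is highest within 250 bp of the midpoint, where its share at the midpoint itself is 70.3% of common and 35.8% of other sites in 24 h fasted liver, and both come to about the same level at 5 kb.

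Most acetylated common sites were acetylated in all 3 states. All 3 lists held 3140 (78.9%), against 40.7% of the other sites, where 46.1% of the whole list did. No list held 369 (9.27%), against 43.7% of the other sites, where 38.8% of the whole list did. Another 229 sites (5.75%) were in the 10 h list only, which is the longest of the 3, against 8.0% of the other sites. Regions of the 24 h list but not the fed list covered 160 sites (4.02%), and the reverse held for 52 (1.31%). Of the 160, 125 (3.14% of common sites) were also in the 10 h list, beside 2.66% of the other sites. The remaining 35 (0.88%) were not, beside 0.95% of the other sites. Of the 52, 42 (1.055%) were in the 10 h list and 10 (0.25%) were not, beside 2.73% and 0.52% of the other sites. H3K27ac density did not follow CREB density. Across acetylated common sites, Spearman rho between any CREB and any H3K27ac list lay between -0.0163 and 0.0340 over 3222 to 3536 sites, while fed and 24 h H3K27ac density had 0.910 with each other (3170 sites).

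Some of the densest common sites had no acetylation call. In the densest decile 53 sites (13.3%) lay outside all 3 H3K27ac lists. The leading one, chr19:6084541-6085829, had CREB densities of 410.9 in fasted and 384.3 in fed liver, and of 569.8 with both hormones, 350.2 with glucagon and 673.3 untreated. Its phospho-CREB density was 63.3 in fasted and 120.5 in fed liver, and no GR site overlapped it. The next 4 of this kind by mean rank, chr15:88953035-88954159, chr8:124999433-125000600, chr6:131242761-131243827 and chr19:4162849-4163912, were likewise in both phospho-CREB lists and outside the GR list. The 369 sites without acetylation overlapped fed phospho-CREB in 41.2% of cases and GR in 12.2%, against 34.2% and 17.0% of the sites acetylated in all 3 states.

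At 319 members the mean rank in hepatocytes was over 25 points nearer the top than that in liver, and 61.4% of these lay at GR. At 245 members it was over 25 points nearer the top in liver, and 6.53% of these lay at GR. Among the members within 10 points, 11.8% lay at GR. Sites that moved up in hepatocytes were thus mostly GR sites, although the hepatocyte mean includes the list of both hormones. Leading sites were taken by rank as a percentage of the length of each list, not among the members. The first by that measure, chr13:55283877-55286622, had CREB densities of 4.01 in fasted and 4.24 in fed liver. With both hormones it had 146.2, with glucagon 55.8 and untreated 18.7, with a GR density of 139.6. The exception among the 5 leading ones was chr3:90313102-90313969, which had no GR call and was dense in all hepatocyte lists, at 52.6, 39.8 and 69.4 with both hormones, with glucagon and untreated, against 4.46 in fasted and 6.41 in fed liver.

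Of the 5 sites nearest the top in liver relative to hepatocytes, by rank as a percentage of list length, 4 lay on chromosome X. Of the 245 members 6.12% did, and of all common sites 2.71%. The first, chrX:123309652-123309903, had a CREB density of 18.9 in fasted and 25.7 in fed liver, against 8.02 with both hormones, 4.31 with glucagon and 5.13 untreated. All 5 overlapped both phospho-CREB lists and a GR site.

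Members just inside the rule shared few bases. The smallest stretch was 4 bp, at chr1:90120857-90121805 with the fasted liver list, followed by 20, 31, 34 and 35 bp at the next 4, and 6 members shared under 50 bp with some list, beside a median smallest stretch of 656 bp. Just outside, chr12:105007719-105008058 missed the fasted liver list by 7 bp, and the next 4 missed the fasted or fed liver list by 19 to 35 bp. Of the 2285 sites that lacked 1 list, 73 came within 500 bp of it. Common sites lay on all chromosomes, at 11.7% (chromosome 1) to 18.03% (chromosome 17) of the glucagon sites there. They were spaced at a median gap of 185.5 kb, and 60 of 3959 gaps were under 1 kb.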

How the data were processed

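Peak lists of ChIP-seq libraries of mouse liver and hepatocytes were used as deposited by the authors. Per the submitters' processing notes, the tools were CASAVA 1.8 and genome build mm9. No aligner is given in the sources used here. Per the file headers, each list gives the position of a region, its highest tag density (a signal) and a z-score. The authors computed this signal and this score for each region with the hotspot caller named in the list names, and their scaling is not stated, so they served only to describe and rank regions within a list. List names give 1 library paired with itself for untreated CREB and 2 of 3 libraries for liver CREB and phospho-CREB. Left out were 2 lists (8 value columns) that fit no sample, so hepatocyte phospho-CREB is not described.

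A minimum of 1 shared base counted as overlap, with both end positions counted. Where several regions overlapped a site, the densest gave its value. Shares have Wilson intervals and differences Newcombe intervals, both at 95%, and medians of shifts have order-statistic intervals. Correlations are across sites, which are not replicates, and have no p-value. No test between conditions was possible, as lists hold no values per library.

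Members and lists of comparison were chosen with earlier results of these data known. Named sites were the 10 with the lowest mean rank, the 5 with the largest liver and hepatocyte rank differences, the 5 highest in GR, the 5 densest without H3K27ac and the 5 nearest each side of the overlap rule. Mean ranks and rank differences for this choice were percentages of list length. No site of chromosome 18 was named, by plan. The fasted-only phospho-CREB sites and the site above 1000 in density were added after the values were seen. A genome or gene annotation of mm9 was not used here, so no gene names, motifs or sequences are given. The overlap code was tested on simulated data of 28229 sites and found 3618 of 3618 planted members. The work was done in Python 3.11.15 with matplotlib 3.10.9, SciPy 1.17.1, pandas 2.3.3 and numpy 2.4.6. Alternatives in overlap, list length, density, width and chromosomes are given in the closing section.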

Additional observations from a re-analysis of the deposited data

How the results depend on the processing

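Of 178 alternative values, 131 kept their size or side, 35 moved, 4 lost their side and 8 reversed, and the cause of each was not tested. The number of common sites stayed within 1.5 times of 3980 in every alternative run. The share in fed liver H3K27ac regions, 81.0% as reported, was 77.0% with 50% overlap, 64.4% with 500 bp windows, 69.6% with the upper 50% of lists, 60.7% with equal length by density and 60.2% by z-score. For 24 h H3K27ac, 83.7% as reported, the same settings gave 79.4%, 66.5%, 74.5%, 63.9% and 63.1%. The GR share, 16.8% as reported, was 18.7% with a 500 bp gap, 15.4% with windows, 13.9% with the upper 50%, 15.7% with equal length by density and 15.2% by z-score. Phospho-CREB shares were 17.4% (fasted) and 39.6% (fed) with the upper 50%, 17.9% and 39.9% with equal length by z-score, and 39.3% (fed) with equal length by density. The median rank correlation of the 6 liver and hepatocyte pairs was 0.714 by z-score, against 0.731 by density.

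The GR difference between common and other sites, 1.63 points as reported, was -8.55 with the upper 50%, -10.8 with equal length by density and -16.0 by z-score. It was -19.3 and -2.50 points in the 2 denser quartiles and -18.6 and -1.73 points in the 2 wider quartiles, and its interval included 0 with 500 bp windows (0.315 points). Phospho-CREB and H3K27ac differences stayed positive in all of these. The shift at GR with both hormones over untreated was -0.465 points in the quartile of members densest in untreated hepatocytes. The shift at GR in fasted over fed liver was 5.13 points by z-score, against 3.39 by density. Settings chosen after seeing the data were those that dropped a CREB list from the rule, the hepatocyte-only comparison, the shift within quartiles of the starting rank and the shift by z-score. No paired analysis was possible because each list gives 1 value per region for its group, and for the same reason no replicate could be left out. Unknown depth and unequal list length limit every share.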

Other observations

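Counted in the liver CREB lists, sites at common sites were acetylated more often than the rest. Of fasted liver CREB sites, 82.7% at common sites and 15.1% elsewhere lay in 24 h H3K27ac regions, a difference of 67.6 points (66.1 to 69.0). Of fed liver CREB sites, 80.4% at common sites and 20.4% elsewhere lay in fed H3K27ac regions, a difference of 60.0 points (58.5 to 61.4). Phospho-CREB differed in sign by list. Fasted phospho-CREB overlapped 15.8% of the fasted liver CREB sites at common sites and 33.9% of those elsewhere, a difference of -18.0 points (-19.6 to -16.5), and at fed liver CREB sites the difference was -9.55 points (-11.0 to -8.10). Fed phospho-CREB overlapped 35.1% of the fed liver CREB sites at common sites and 26.8% of those elsewhere, a difference of 8.27 points (6.55 to 10.0), and at fasted liver CREB sites the difference was 0.873 points with an interval that includes 0 (-0.951 to 2.71). Median CREB density was 18.3 at common sites and 4.26 elsewhere in fasted liver, and 20.8 at common sites and 5.30 elsewhere in fed liver.

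Sites that missed membership by 1 liver list differed in GR. Of the 613 sites in every CREB list but that of fed liver, 45.7% (41.8 to 49.6) lay at GR, against 14.1% (12.5 to 15.9) of the 1568 sites in every list but that of fasted liver. Their median glucagon densities were 19.2 and 16.6. H3K27ac of 24 h fasted liver overlapped 78.3% of the 613 and 70.0% of the 1568 sites. Among the common sites, those at GR were in the fasted phospho-CREB list alone in 34 of 669 cases (5.08%) and in the fed list alone in 113 (16.9%), against 10 of 3311 (0.302%) and 711 (21.5%) away from GR. By combination, 1894 common sites (47.6%) were acetylated without phospho-CREB or GR, 218 (5.48%) had all 3, and 185 (4.65%) had none. Combinations were counted at common sites only, so their shares cannot be set against the whole glucagon list. Taken singly, 38.8% of that list lay outside every H3K27ac list, 6.66% at phospho-CREB and 15.4% at GR.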
